A study of Mus musculus with 3 samples.

Results

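The 10 genes described here are imprinted growth genes of the mouse: H19, Igf2, Igf2r, Peg3, Peg10, Dlk1, Meg3, Phlda2, Grb10 and Mest. They were taken by symbol from a matrix of unique molecular identifier (UMI) counts over 51923 genes. All 10 had counts and passed the low-count filter of every comparison made over all cells. The counts came from embryos on a C57BL/6 background that carried Mesp1-Cre, which acts in nascent mesoderm, and the Ai9 reporter, which makes cells tdTomato-positive after Cre recombination. Every embryo also carried a floxed allele of Wls, the gene of the membrane protein that escorts Wnt ligands out of the cell. The labels give the genotypes Wls fl/+ and Wls fl/fl, whereas the deposited table of cells calls the conditions wildtype and knockout. Here wildtype was taken as Wls fl/+ (controls) and knockout as Wls fl/fl (mutants). On that reading the controls too had lost 1 Wls allele wherever Cre had acted. Embryos were staged at E8.0, E8.5 or E9.5, tagged with MULTI-seq lipid barcodes, sorted for the reporter and pooled for 10x Chromium capture. The unit compared is the barcode sample, the summed counts of all cells with the same run, barcode, stage and genotype. Whether a barcode held 1 embryo or a litter pool is not given, so p-values measure the spread between barcode samples.

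An imprinted gene is transcribed mainly from the allele of 1 parent, because that allele and its counterpart carry different DNA methylation from the germ line. Many such genes act on fetal and placental growth: paternally expressed Igf2 is a growth factor, and the maternally expressed receptor Igf2r clears it from the cell surface. In mesoderm several of them are strongly transcribed in progenitors and decline after birth. The counts do not separate the parental alleles, so only the total transcript level of each gene is described.

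The genes lie in several imprinted clusters of the GRCm38 genome (GENCODE M21 positions). On chromosome 7, H19, a long noncoding RNA, spans 142575529 to 142578143 on the minus strand and neighbours Igf2, at 142650766 to 142666816. Phlda2, a pleckstrin homology protein that restrains placental growth, lies further along at 143501545 to 143503150, and Peg3, a zinc finger protein, at 6703892 to 6730431. Dlk1, a membrane protein related to Notch ligands, spans 109452823 to 109463336 on chromosome 12, and Meg3, a noncoding RNA of the same cluster, 109541001 to 109571726. Peg10, derived from a retrotransposon and needed for the placenta, spans 4747306 to 4760517 on chromosome 6, and Mest, which encodes an alpha/beta hydrolase, 30723547 to 30748465. Igf2r spans 12682406 to 12769664 on chromosome 17, and Grb10, an adaptor that dampens insulin and IGF receptor signalling, 11930508 to 12038683 on chromosome 11.

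The upstream sequences shown are those of Dlk1 and Meg3, which had the largest genotype differences across stages and at E9.5, not at E8.0. They are the 250 bases before the RefSeq start (GRCm38.p6, plus strand, chr12:109452573-109452822 and chr12:109540746-109540995), with CpG dinucleotides, the sites of methylation, in capitals.

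Dlk1: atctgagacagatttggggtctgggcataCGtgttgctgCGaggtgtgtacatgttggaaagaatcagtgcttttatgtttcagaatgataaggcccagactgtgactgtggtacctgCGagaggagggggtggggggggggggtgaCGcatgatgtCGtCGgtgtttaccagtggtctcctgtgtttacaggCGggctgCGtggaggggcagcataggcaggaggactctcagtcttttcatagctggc

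Meg3: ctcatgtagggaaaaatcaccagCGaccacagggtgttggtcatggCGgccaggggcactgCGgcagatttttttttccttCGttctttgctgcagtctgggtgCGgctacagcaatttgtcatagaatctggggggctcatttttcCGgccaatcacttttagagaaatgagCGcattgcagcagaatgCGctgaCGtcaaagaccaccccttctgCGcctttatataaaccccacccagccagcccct

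The Dlk1 window held 8 CpG and the Meg3 window 10. Promoters of 8 of the 10 genes were matched, without H19 and Peg10, and had a median of 9 CpG, against 6 over 27025 mouse promoters of the same length. Grb10 had the most, 40 CpG, then Igf2r with 27 and Phlda2 with 21, while Igf2 had 1. Only the first listed start of each gene was used, so windows of other starts are not covered. The windows of Phlda2, Grb10 and Mest lie inside the annotated gene, and that of Peg3 overlaps its gene in part. The GC box GGGCGG, searched on both strands, was in 4 of the 8 windows (Igf2r, Phlda2, Grb10, Mest) and in 32.9% of all promoters. TATAAA was in those of Meg3 and Phlda2 and in 13% of all, and CTTTGAT, a core TCF/LEF motif, was in none of the 8 and in 3.23% of all.

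The matrix held 14777 cells and 331587989 UMIs, with a median of 21739 UMIs per cell (895 to 102853). There were 12 control samples (9852 cells) and 10 mutant samples (4925 cells), of 6 to 2508 cells and 134457 to 61307782 UMIs each. Wls itself lay between 35.9 and 65.4 CPM (UMIs per 1000000 UMIs of the sample) in the controls and between 3.72 and 14.2 CPM in the mutants of the 3 stages. E8.0 was captured in run 1 alone, E8.5 in run 2 alone, and E9.5 in each of 3 runs, of which run 3 had the lowest median depth, 11866 UMIs per cell. At E8.0 the summed Y-linked transcripts were at 127 to 138 CPM in the 3 mutants and at 8.55 to 70.7 CPM in the 3 controls. Sex and genotype therefore cannot be told apart at that stage. At E9.5 the Y-linked sums were at 2.74 to 149 CPM in the controls and at 6.94 to 151 CPM in the mutants. In run 1 of that stage they were at 8.49 and 8.58 CPM in controls and at 10.4, 136 and 151 CPM in mutants. A further control of 28 cells is labelled E7.5, and 67.9% of its cells were erythroid by the rule given below. It had H19 at 495 CPM and no UMI of Igf2 or Phlda2, and, alone at its stage, it gave no genotype contrast. Across runs, 23 cell barcode sequences occurred more than once.

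**Figure D1:**
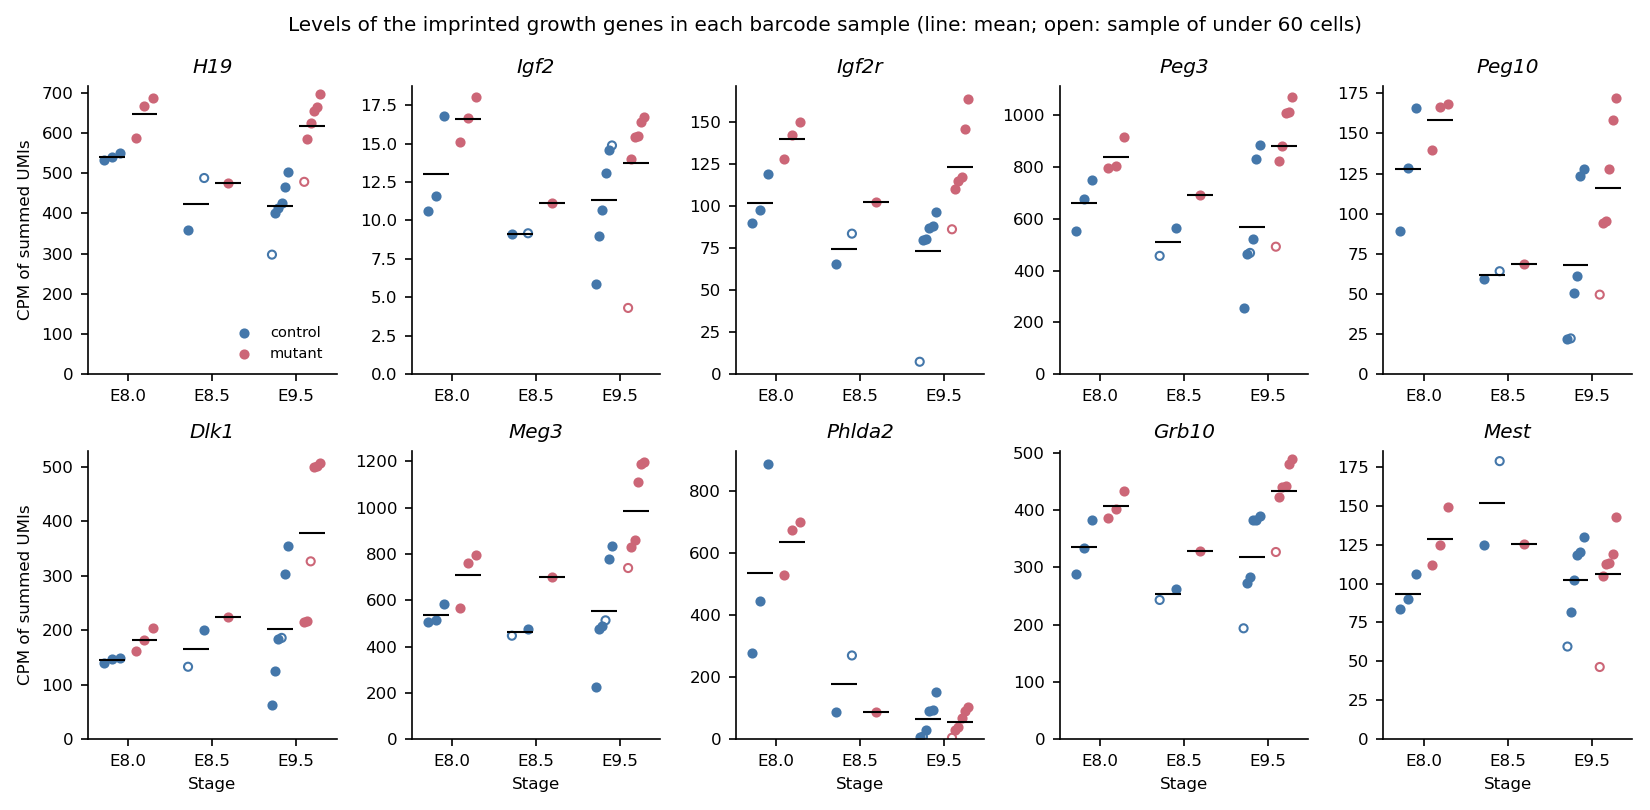
Each panel plots 1 gene, with CPM of summed UMIs on a linear y axis and stage on the x axis, and a point for each barcode sample (blue control, red mutant; open points hold under 60 cells; lines are group means). Phlda2 falls from 277 to 884 CPM in the E8.0 samples to 153 CPM or less in every E9.5 sample, and H19, Dlk1 and Meg3 sit higher in most mutants than in controls of their stage.

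Across the stages, 6 of the 10 genes were higher in mutants and none was lower. They were Meg3, Dlk1, Igf2r, Peg3, H19 and Grb10, with fitted log2 differences of 0.27 to 0.60. The test was edgeR's quasi-likelihood F test over 20831 genes with a term for each stage and run, and Benjamini-Hochberg adjustment over all genes at 0.05. It called 10.2% of all genes, 4.47% as higher in mutants. The median of the 10 fitted differences was 0.34, beside 0.018 over all genes tested. With 28 cells from each sample, Meg3 and Dlk1 alone were called, with 1.69% of all genes, and the calls of H19, Igf2r, Peg3 and Grb10 were lost (log2 0.31 to 0.47, edgeR adjusted p = 0.0620 to 0.213). Scaling with DESeq2 size factors called 7 of the 10, all higher, beside 11.6% of all genes, and turned the split over all genes from 931 higher and 1201 lower to 1441 higher and 966 lower. In sums over mixed cells, fewer cells of a type and less RNA per cell cannot be told apart.

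Meg3 and Dlk1 had the largest differences. Meg3 was at 505, 515 and 584 CPM in the E8.0 controls and at 569, 763 and 794 CPM in the mutants. The E8.5 mutant, at 701 CPM, was above both controls of that stage, at 447 and 478 CPM. The E9.5 controls ranged from 224 to 836 CPM with a median of 501 CPM, and the mutants from 739 to 1197 CPM with a median of 986 CPM. The groups overlapped at E8.0 and at E9.5, although the mutant medians were higher. The fitted log2 difference of Meg3 was 0.60 (SE 0.10, edgeR adjusted p = 0.00153). Dlk1 was at 139, 147 and 150 CPM in the E8.0 controls and at 162, 182 and 205 CPM in the mutants. At E8.5 it was at 133 and 200 CPM in the controls and at 225 CPM in the mutant. The E9.5 controls ranged from 63.2 to 354 CPM with a median of 185 CPM, whereas the mutants of that stage ranged from 216 to 507 CPM with a median of 413 CPM. The groups of Dlk1 overlapped at E9.5. At E8.0 every mutant was above every control, as for 12.5% of all genes tested. E8.5 held 1 mutant, and the share of all genes in which it was above both controls is not given. Its place there is therefore not read as a result for any gene. The fitted log2 difference of Dlk1 was 0.57 (SE 0.11, edgeR adjusted p = 0.00375).

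H19 and Igf2r, both maternally expressed, differed by less. H19 was at 533, 540 and 551 CPM in the E8.0 controls and at 588, 667 and 687 CPM in the mutants. At E8.5 the mutant (476 CPM) lay between both controls (358 and 488 CPM). The E9.5 controls ranged from 297 to 504 CPM (median 419 CPM), against 479 to 697 CPM (median 639 CPM) in mutants. The lowest E9.5 mutant, of 57 cells, was the sole mutant within the control range. H19 differed by 0.32 on the log2 scale (SE 0.074, edgeR adjusted p = 0.00987). Igf2r was at 89.7, 97.4 and 119 CPM in the E8.0 controls and at 128, 142 and 150 CPM in the mutants. The E8.5 mutant had 102 CPM, against 65.6 and 83.6 CPM in the controls. The E9.5 range was 7.44 to 96.7 CPM in controls (median 83.7 CPM), against 86.2 to 164 CPM in mutants (median 116 CPM). For Igf2r every E8.0 mutant was thus above every control, as for 12.5% of all genes tested, and the groups overlapped at E9.5. The log2 difference of Igf2r was 0.43 (SE 0.10, edgeR adjusted p = 0.0100).

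Peg3 and Grb10 also passed the test with all cells, though not with equal cells per sample, as given above. Peg3 was at 553, 677 and 750 CPM in the E8.0 controls and at 795, 804 and 917 CPM in the mutants. It was at 457 and 564 CPM in the E8.5 controls and at 691 CPM in the mutant. Its E9.5 range was 254 to 884 CPM in controls (median 495 CPM), against 493 to 1072 CPM in mutants (median 946 CPM). For Peg3 too every E8.0 mutant was above every control, as for 12.5% of all genes tested, and the groups overlapped at E9.5. The log2 difference of Peg3 was 0.42 (SE 0.11, edgeR adjusted p = 0.0159). Grb10 was at 289, 334 and 383 CPM in the E8.0 controls and at 385, 401 and 433 CPM in the mutants. It was at 243 and 262 CPM in the E8.5 controls and at 328 CPM in the mutant. Its E9.5 range was 193 to 390 CPM in controls (median 332 CPM), against 327 to 488 CPM in mutants (median 442 CPM), and the groups overlapped. At E8.0 every Grb10 mutant value was above every control, as for 12.5% of all genes tested. The log2 difference of Grb10 was 0.27 (SE 0.075, edgeR adjusted p = 0.0240). The Grb10 call was lost without Bar1, the E8.5 mutant, without Bar23 or without Bar5, and with the Y-linked share as a covariate (log2 0.29, adjusted p = 0.0847). In these leave-one-out fits its difference stayed between 0.24 and 0.31.

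The other 4 genes did not pass. Peg10 had a log2 difference of 0.36 (SE 0.14, edgeR adjusted p = 0.108), with 89.1, 128 and 166 CPM in the E8.0 controls and 139, 167 and 168 CPM in the mutants. It passed with DESeq2 (log2 0.44, adjusted p = 0.0130), with DESeq2 size factors in edgeR (0.42, adjusted p = 0.0422) and with the Y-linked share as a covariate (0.62, adjusted p = 0.0343). Igf2 was low, at 4.31 to 18.1 CPM in the samples of the 3 stages, with a log2 difference of 0.24 (SE 0.11, edgeR adjusted p = 0.187), and DESeq2 called it (0.30, adjusted p = 0.0192). Of its 5723 exonic bases, 3596 are shared on the same strand with the overlapping gene model Gm49394, which had no UMI, and how reads of both genes were counted is not given in the sources used here. The level of Igf2 is therefore uncertain. Mest had a log2 difference of 0.00 (SE 0.11) and Phlda2 of -0.16 (SE 0.37), both with edgeR adjusted p-values of 0.876 or more. Mest shares 912 exonic bases with the opposite-strand gene Copg2, and whether counting used strand is not stated.

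**Figure D2:**
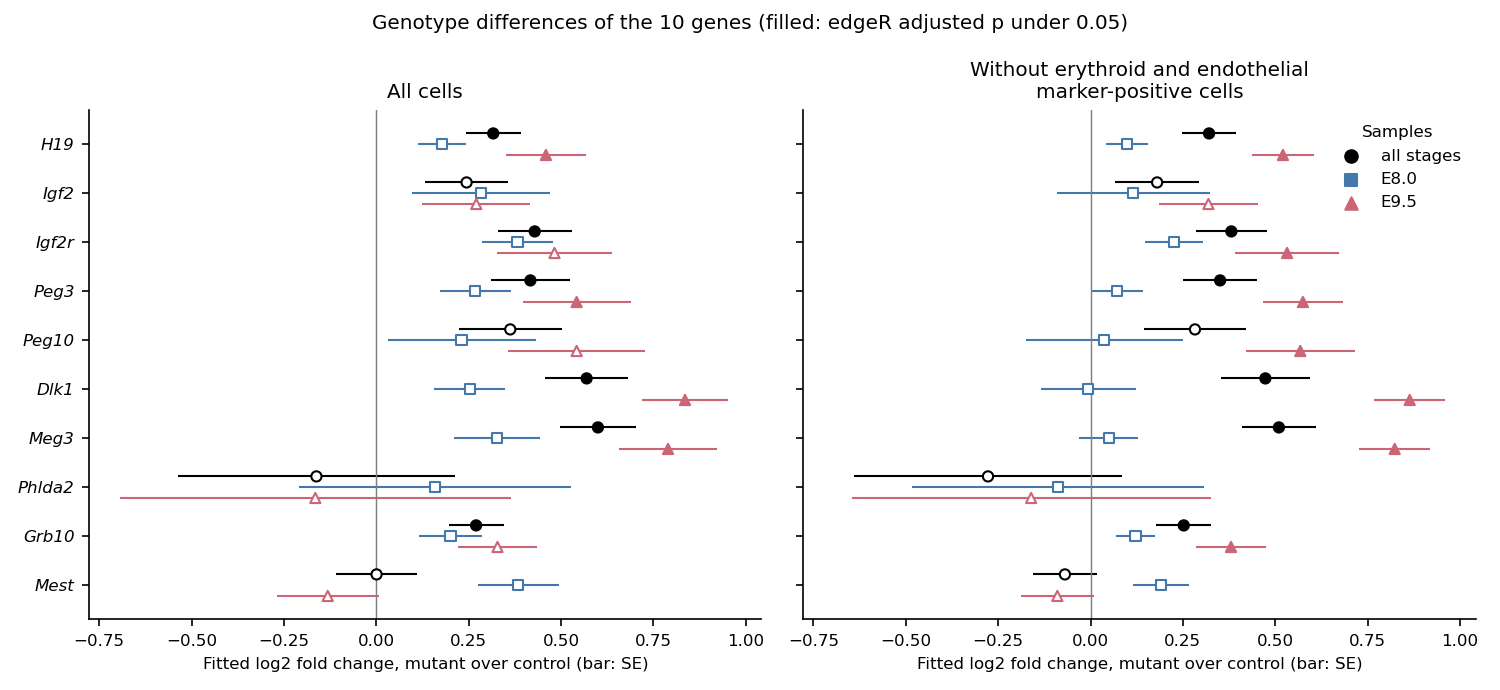
Points are fitted log2 fold changes of mutants over controls with SE bars for each gene, for all stages (black), E8.0 (blue) and E9.5 (red), and filled points passed the edgeR threshold; the left panel uses all cells and the right leaves out erythroid and endothelial marker-positive cells. In the left panel 6 genes pass over all stages, none at E8.0 and 4 at E9.5; in the right panel the E8.0 values lie between -0.09 and 0.23.

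Taken stage by stage, calls were made at E9.5 and not at E8.0, and without the E9.5 samples the fit over all stages called 0 of the 10 and 0.00536% of all genes, with 5 of the 10 at an unadjusted p under 0.05. At E8.0, with 3 samples a genotype, edgeR called 0 of the 10 genes and 0.0244% of all genes. DESeq2 also called 0. At an unadjusted p under 0.05 there were 7 of the 10 at E8.0. The share of all genes at that threshold is not given for this fit or the one without E9.5. Neither count is therefore read as a result. All 10 fitted differences were above 0 (0.16 to 0.38), and for 6 genes, H19, Igf2r, Peg3, Dlk1, Grb10 and Mest, every mutant was above every control, as for 12.5% of all genes tested. Erythroid marker-positive cells made up 9.33, 28.3 and 30.5% of the E8.0 controls and 3.39, 11.6 and 13% of the mutants, and erythroid cells held little of most of the 10 genes. Endothelial marker-positive cells made up 2.61, 4.93 and 5.99% of the controls and 3.32, 7.32 and 7.42% of the mutants. Without both classes, which were left out together, the E8.0 differences were between -0.09 and 0.23, with Meg3 at 0.05 and Dlk1 at -0.01. With the Y-linked share as a covariate Igf2r was at -0.03 and Grb10 at -0.10. What part these cells or sex had in the E8.0 values in all cells was otherwise not tested.

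At E9.5 edgeR called 4 genes higher in the 6 mutants than in the 6 controls, where it called 10.3% of all genes, 5.71% as higher. They were Dlk1 (log2 0.84, SE 0.12, adjusted p = 0.000603), Meg3 (0.79, SE 0.13, adjusted p = 0.00220), Peg3 (0.54, SE 0.15, adjusted p = 0.0315) and H19 (0.46, SE 0.11, adjusted p = 0.0169). The median of the 10 was 0.47, beside 0.023 over all genes. Igf2r (0.48), Grb10 (0.33) and Peg10 (0.54) had edgeR adjusted p-values of 0.0613, 0.0619 and 0.0755. These 3 genes passed, making 7 called, with DESeq2, with DESeq2 size factors and without erythroid and endothelial marker-positive cells. Those fits also called more of all genes, 15.7%, 11.8% and 15.7%, than the 10.3% above. The H19 call was lost without Bar23 or Bar9, both controls, and the Peg3 call without Bar22, Bar23 or Bar9 or without the mutant Bar8. Over all 12 omissions H19 lay between 0.41 and 0.54 and Peg3 between 0.40 and 0.65. Proepicardium marker-positive cells, in which Peg3, Dlk1 and Meg3 were high (class rule below), made up 1.22 to 3.49% of the E9.5 controls with at least 20 cells (median 3.01%). They made up 1.79 to 7.53% of the mutants (median 5.67%), and their part in these differences was not tested. Without Bar5 and Bar6, the samples of 57 and 6 cells, 5 genes were called, with Igf2r (0.48, edgeR adjusted p = 0.00935) beside the 4, and 9.24% of all genes. Igf2r had 1 UMI in Bar6.

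The E9.5 levels also differed between runs. In run 1 Dlk1 was at 304 and 354 CPM in the controls and at 499, 502 and 507 CPM in the mutants. In run 2 it was at 184 and 186 CPM in controls, against 327 CPM in the mutant, and in run 3 at 63.2 and 126 CPM in controls, against 216 and 217 CPM in mutants. Within each run every mutant was thus above every control. The same held for H19, Igf2r, Meg3 and Grb10, 5 of the 10 genes in all, as for 6.06% of all genes tested. With runs together no gene of the 10 had every mutant above every control (2.39% of all genes). In samples of at least 60 cells, H19, Igf2r and Grb10 did (5.83% of all genes). Run 1 alone called 5 of the 10 at E9.5 and 7.4% of all genes. Run 3 alone called 0 of the 10 and 0.522% of all genes. Run 2 held 1 E9.5 mutant, of 57 cells, and a control of 6 cells beside 1 of 608, so no difference is read from it alone. Phlda2, for example, had 4 UMIs in that mutant and 1 UMI in the smaller control.

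Whether the genotype difference changed between E8.0 and E9.5 was tested as an interaction. EdgeR called 0 of the 10 genes, and 0.464% of all genes. At an unadjusted p under 0.05 there were 3 of the 10, beside 2060 of all 17872 genes tested. The largest terms were those of Dlk1 (0.59, SE 0.18, adjusted p = 0.176) and Mest (-0.51, SE 0.21, adjusted p = 0.335). DESeq2 called Dlk1 (0.60, adjusted p = 0.0399). Without erythroid and endothelial marker-positive cells edgeR called Dlk1 (0.80, adjusted p = 0.0206) and Meg3 (0.71, adjusted p = 0.0305), and without the low-count filter Dlk1 (0.52) and Mest (-0.57).

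Between stages, Phlda2 fell and Dlk1 rose, in fits of all 3 stages with genotype as a term. Phlda2 was at 277, 445 and 884 CPM in the E8.0 controls and at 528, 674 and 699 CPM in the E8.0 mutants. At E8.5 it was at 269 and 87.6 CPM in the controls and at 87.1 CPM in the mutant. Its E9.5 range was 7.12 to 153 CPM in controls (median 59.0 CPM), against 4.31 to 104 CPM in mutants (median 52.1 CPM). No E9.5 sample reached the lowest E8.0 sample. From E8.0 to E9.5 Phlda2 fell by 3.07 on the log2 scale (SE 0.41, edgeR adjusted p = 2.79e-05), and Dlk1 rose by 0.89 (SE 0.25, edgeR adjusted p = 0.0121). These were 2 of the 10 genes, in a comparison that called 22.5% of all genes and had no run term. With run as a term edgeR called Phlda2, Dlk1 and also Meg3, and 21.5% of all genes. In the controls alone Dlk1 changed by 0.57 (edgeR adjusted p = 0.390) and in the mutants alone by 1.2 (adjusted p = 0.0174). Without a run term Meg3 had no call in all samples (0.38, edgeR adjusted p = 0.0748). It was at 0.15 in the controls alone (adjusted p = 0.815) and rose by 0.62 in the mutants alone (adjusted p = 0.0191). These fits of 1 genotype called 3.65% of all genes in controls and 13.6% in mutants. They had no run term, while E8.0 came from run 1 alone and E9.5 from 3 runs with different Dlk1 levels. In run 1 every E9.5 control was above the E8.0 controls in Dlk1, so these values mix stage with run. Whether the changes differed between genotypes is the question of the interaction test above. The median of the 10 fitted changes was -0.0045, beside 0.0014 over all genes.

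E8.0 cells came from run 1 only. Within that run, edgeR called 6 genes from E8.0 to E9.5: Dlk1 (1.36), Meg3 (0.68), Peg3 (0.35) and Grb10 (0.20) higher, and Phlda2 (-2.97) and Igf2r (-0.20) lower. That fit called 29.7% of all genes. H19, with no call over all cells (-0.06, SE 0.09), fell by 0.35 without erythroid and endothelial marker-positive cells (edgeR adjusted p = 0.00407).

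E8.5 held 2 controls, 1 of them of 34 cells, and 1 mutant. From E8.0 to E8.5 edgeR called 1 of the 10, Phlda2 (-2.04, SE 0.67, adjusted p = 0.0390), and 19% of all genes. That call was lost without Bar24, Bar25, Bar27, Bar28, Bar3 or Bar1, with values of -2.55 to -1.79 over all omissions. It was also lost with run as a term (-2.49, adjusted p = 0.192) and with 28 cells from each sample (-1.57, adjusted p = 0.232). The fit with 28 cells from each sample called Mest instead, at 0.91 (edgeR adjusted p = 0.0472), beside 2.56% of all genes, and with all cells Mest was at 0.51 (edgeR adjusted p = 0.0567). From E8.5 to E9.5 edgeR called 0 of the 10 and 0.0332% of all genes, and DESeq2 called Grb10. At an unadjusted p under 0.05 edgeR had 2 of the 10. The share of all genes at that threshold is not given, so this count is not read as a result. DESeq2 size factors turned the E8.0 to E8.5 split over all genes from 1653 higher and 1776 lower to 1268 higher and 2314 lower. They moved the median of all genes to -0.11 from E8.0 to E8.5 and to 0.17 from E8.5 to E9.5, against -0.03 and 0.08 with the scaling used.

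Cells were placed in lineage classes by fixed markers: a cell belonged to a class when at least 3 of its 6 markers had a UMI and no other class had as many. This named 8772 of the 14777 cells, among them 2305 erythroid, 1588 paraxial mesoderm, 981 cardiomyocyte and 452 endothelial cells. Neural (231 cells) and endoderm or epithelium marker-positive cells (82 cells), which are not expected products of Mesp1-positive mesoderm, were few. All 6 markers of each class had counts. Summed visceral endoderm markers were at 51.1 to 182 CPM in the E8.0 controls and at 4.79 to 122 CPM in the E8.0 mutants. Summed trophoblast markers were at 74.1 to 191 CPM and at 120 to 133 CPM there, with Prl3d1 and Prl2c2, which mark giant cells, at 0. Megakaryocyte or myeloid markers were at 12.8 to 23.5 CPM and 9.48 to 16.2 CPM, and neural crest markers at 9.53 to 12.4 CPM and 12.3 to 13.4 CPM. At E9.5 visceral endoderm markers were at 0 to 11.7 CPM in controls and at 2.16 to 407 CPM in mutants, and megakaryocyte or myeloid markers at 0 to 181 CPM and 3.74 to 467 CPM. Trophoblast markers were at 0 to 64.5 CPM and 9.70 to 113 CPM at that stage, and neural crest markers at 0 to 16.3 CPM and 8.62 to 20.1 CPM. The part of these cells in the results was not tested. The levels below are means of CPM over control samples with at least 20 cells of the class, with no test. They pool stages, and classes differ in the stages they hold: the proepicardium class has no E8.0 sample.

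**Figure D3:**
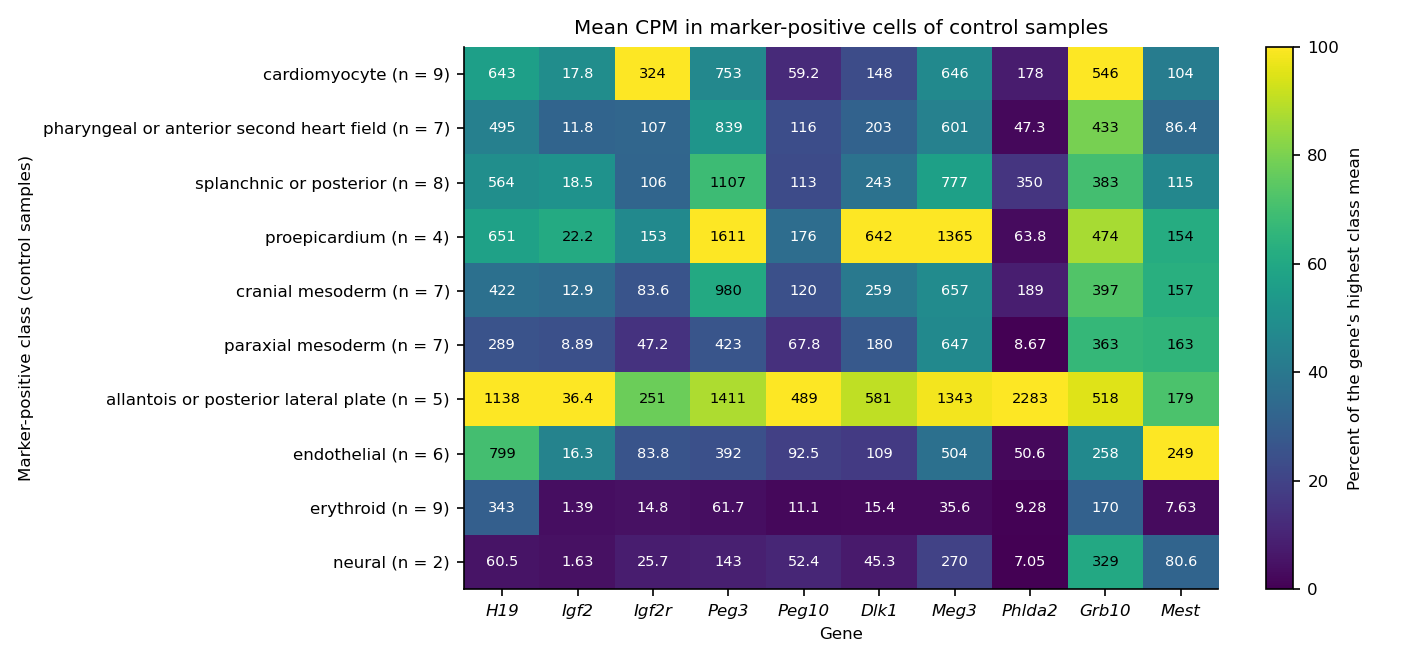
Rows are marker-positive classes and columns the 10 genes; numbers are mean CPM over control samples with at least 20 such cells (n beside the class), and colour gives each mean as a percent of the gene's highest class. Allantois or posterior lateral plate cells hold the highest mean of H19, Igf2, Peg10 and Phlda2, and erythroid or neural cells the lowest mean of each gene.

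Phlda2 had its highest mean in 1 class by a wide margin. In allantois or posterior lateral plate cells of the controls it was at 2283 ± 1102 CPM (SD, n = 5), against 350 CPM in splanchnic or posterior cells and 8.67 CPM in paraxial mesoderm cells. The same class held the highest means of H19 (1138 CPM), Peg10 (489 CPM) and Igf2 (36.4 CPM). Among the E8.0 controls, Bar24 had 12.3% of its cells in that class and 884 CPM of Phlda2, Bar29 3.52% and 445 CPM, and Bar26 none and 277 CPM. Without these cells the fitted change of Phlda2 from E8.0 to E9.5 was -2.93 (edgeR adjusted p = 2.69e-05).

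Igf2r and Grb10 were highest in cardiomyocyte cells, at 324 and 546 CPM (n = 9), and Mest in endothelial cells, at 249 CPM (n = 6). Cardiomyocyte cells made up 5.722 to 12.5% of the E8.0 controls (median 7.003%) and 11.27 to 15.05% of the E8.0 mutants (median 11.61%). They made up 0 and 3.51% of the E8.5 controls and 12.7% of the E8.5 mutant. At E9.5 they made up 4.01 to 12.8% of controls with at least 20 cells (median 5.06%) and 3.15 to 15.5% of mutants (median 6.20%). Their part in the genotype differences of Igf2r and Grb10 was not tested. Peg3 (1611 CPM), Dlk1 (642 CPM) and Meg3 (1365 CPM) had their highest means in proepicardium cells (n = 4), a source of the epicardium. In E9.5 controls alone, the allantois class (n = 2) had higher means than the proepicardium class (n = 3). They were 1886 and 1686 CPM for Peg3, 761 and 685 CPM for Dlk1 and 1630 and 1488 CPM for Meg3. Both classes held Bar22 and Bar23 of run 1, and the proepicardium class also Bar9 of run 3. Within Bar22 and Bar23 the order of Dlk1 was the reverse, at 870 and 932 CPM and at 651 and 738 CPM. Meg3 was at 1616 and 1685 CPM in Bar22 and at 1645 and 1461 CPM in Bar23. With stages pooled, for Dlk1 and Meg3 the allantois class was close, at 581 and 1343 CPM, and took the highest place with a rule of 4 markers, and for Meg3 also after thinning each cell to 5000 UMIs. Erythroid cells were low in Igf2, Igf2r, Peg3, Peg10, Dlk1, Meg3, Phlda2 and Mest, at 1.39 to 61.7 CPM, with H19 at 343 CPM and Grb10 at 170 CPM (n = 9). After thinning, 75.8% of control erythroid cells had a UMI of H19 and 9.06% one of Meg3, and the unthinned shares were 97.9% and 28.6%. The thinned share with an H19 UMI was 27.3% in neural cells (n = 2), at a median depth of 21862 UMIs. No cells known to lack H19 were at hand, so UMIs from free RNA were not measured and these shares are not read as expression. The median depth was 28219 UMIs in erythroid cells and 20987 UMIs in cardiomyocyte cells, of which 69.7% had a Meg3 UMI after thinning. Thinning left out 365 control and 82 mutant cells.

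The change from E8.0 to E9.5 was also fitted within classes, an alternative added after the data were seen. Paraxial mesoderm cells, precursors of somites, gave 7 calls of 10, all higher at E9.5, where edgeR called 5.63% of genes, 3.25% as higher. Dlk1 was at 11.2 and 19.1 CPM in the E8.0 controls and at 10.4 and 21.2 CPM in the E8.0 mutants of this class. At E9.5 it was at 142, 225, 292 and 390 CPM in the controls and at 233, 528, 547 and 614 CPM in the mutants. No E9.5 sample came near an E8.0 sample, and Dlk1 rose by 4.68 on the log2 scale (SE 0.36, edgeR adjusted p = 1.60e-07). Meg3 rose by 2.81 (SE 0.21, edgeR adjusted p = 1.53e-07), from 107 to 263 CPM in the 4 E8.0 samples to 634 to 1625 CPM in the 8 E9.5 samples. Igf2 (1.23), Peg3 (1.00), Peg10 (0.81), Mest (0.67) and H19 (0.50) rose too in this class.

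Dlk1 also rose in cranial mesoderm (2.08), pharyngeal or anterior second heart field (1.71) and allantois cells (0.96), and its fitted value was -0.35 in endothelial cells, with no call. Mest fell in splanchnic or posterior cells (-0.54) and rose in cranial mesoderm cells (0.47), and Peg3 rose in allantois cells (1.09). Meg3 rose in cranial mesoderm (1.09), allantois (0.62) and cardiomyocyte cells (0.60). Phlda2 fell in splanchnic or posterior (-3.51), endothelial (-3.07), cardiomyocyte (-2.76), pharyngeal (-1.97) and allantois cells (-1.33). H19 fell in pharyngeal cells (-0.59, edgeR adjusted p = 0.00408) and rose in erythroid cells (1.77, edgeR adjusted p = 1.54e-05), where Grb10 rose as well (0.90). In erythroid cells H19 was at 189, 231 and 358 CPM in the E8.0 controls and at 192 and 228 CPM in the mutants, and at E9.5 at 317 to 498 CPM in the 5 controls and at 582, 725, 726 and 766 CPM in the 4 mutants. EdgeR called 30.4% of genes in that class, 22.6% in cardiomyocyte, 19.8% in splanchnic, 8.7% in pharyngeal, 5.55% in cranial, 5.26% in endothelial and 4.62% in allantois cells. Whether these changes differ between classes was not tested.

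**Figure D4:**
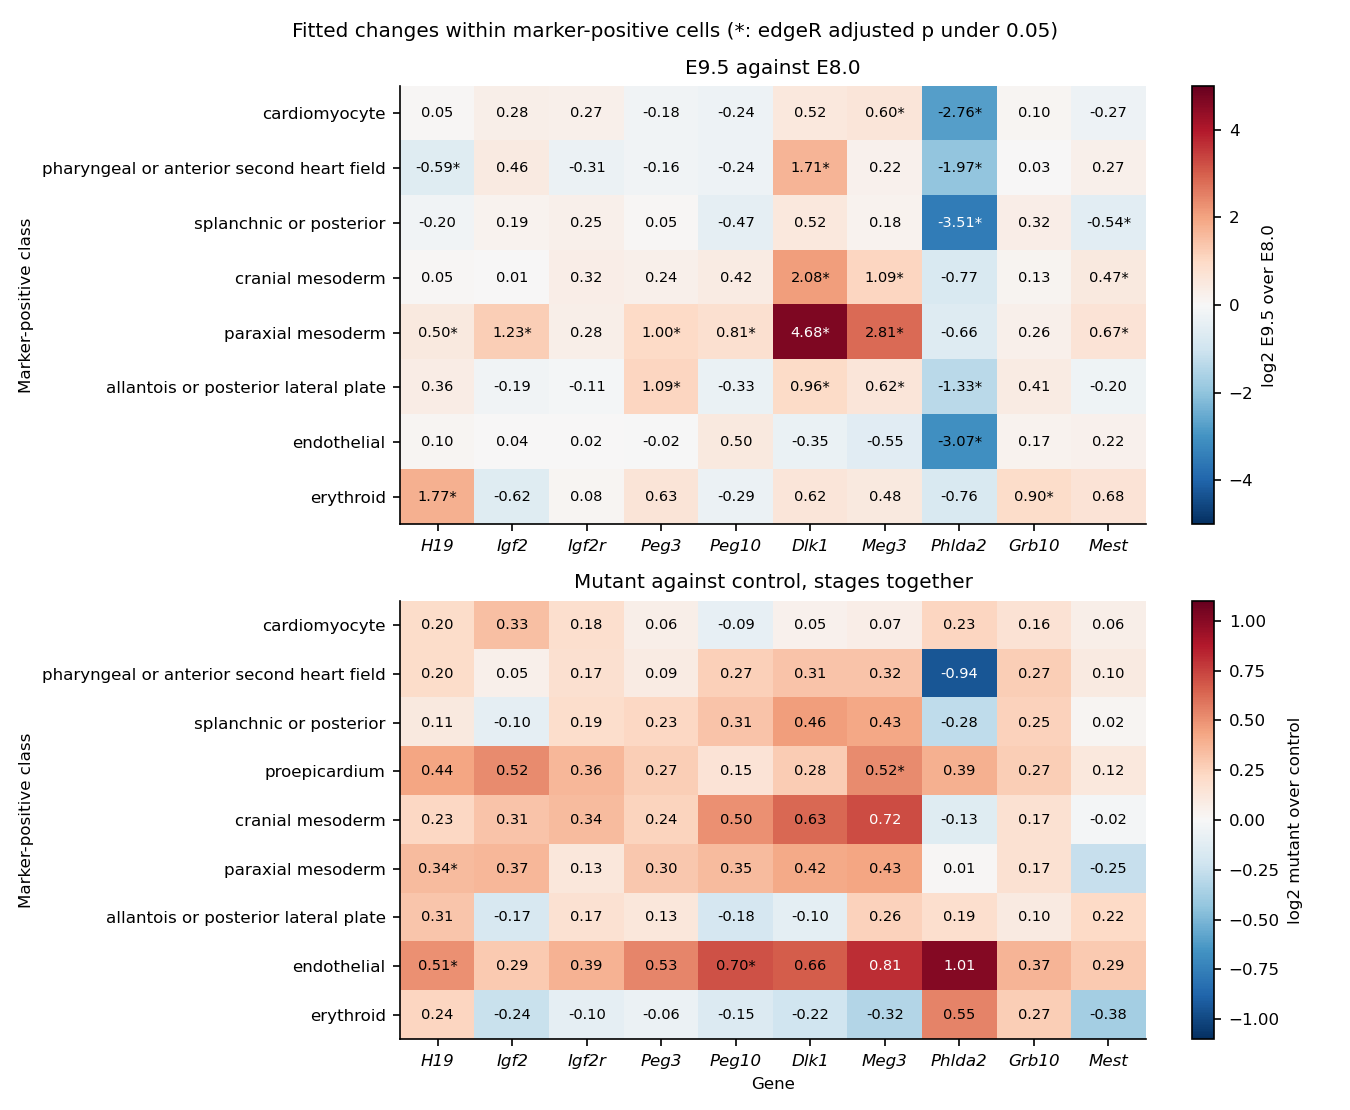
Rows are marker-positive classes, columns the 10 genes, and numbers and colour give fitted log2 changes from E8.0 to E9.5 (top) and of mutants over controls with stages together (bottom), with an asterisk where the edgeR adjusted p was under 0.05. Dlk1 in paraxial mesoderm cells (4.68) is the largest rise in the top panel and Phlda2 in splanchnic or posterior cells (-3.51) the largest fall, and the bottom panel has 4 asterisks. The allantois row of the bottom panel has mutant samples of E8.0 alone.

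Within classes, 4 genotype differences passed the test. EdgeR called H19 (0.51, SE 0.080, adjusted p = 0.0236) and Peg10 (0.70, SE 0.12, adjusted p = 0.0237) in endothelial cells, which it did for 0.171% of genes. It called H19 in paraxial mesoderm cells (0.34, SE 0.097, adjusted p = 0.0363; 7.7% of genes) and Meg3 in proepicardium cells (0.52, SE 0.11, adjusted p = 0.0457; 1.34% of genes). Each call was lost in some of the fits that left out 1 sample. In endothelial cells 6 of the 10 omissions were run, since the others left no stage with 2 samples of each genotype. The 2 calls there were lost in 5 of the 6, without Bar3, Bar1, Bar22, Bar23 or Bar19, and with 4 markers (adjusted p = 0.104 and 0.0849), and that of Meg3 without any of those or Bar21 and with 4 markers (0.198). Over the omissions run, H19 stayed between 0.45 and 0.52 and Peg10 between 0.70 and 0.77 in endothelial cells, and Meg3 between 0.40 and 0.63 in proepicardium cells. The endothelial omissions not run were those of the E8.0 samples, from the only stage of that class with 2 samples of each genotype. Bar1 was its only mutant of E8.5 and Bar19 its only mutant of E9.5. The endothelial ranges therefore do not show how far the differences rest on E8.0, where sex and genotype cannot be told apart. The call of H19 in paraxial cells was lost without Bar3, Bar1, Bar22, Bar23, Bar9, Bar19, Bar20, Bar21 or Bar10, with values of 0.30 to 0.44 over all omissions, and held with 4 markers (0.56, adjusted p = 0.00427). At E8.0 H19 in paraxial cells was at 277 and 297 CPM in the controls and at 233 and 282 CPM in the mutants, which overlapped. The E8.5 control had 245 CPM, against 311 CPM in the mutant. At E9.5 it was at 238, 316, 325 and 327 CPM in the controls and at 452, 478, 513 and 544 CPM in the mutants, which did not overlap, as for 7.72% of all genes tested in the class.

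In cardiomyocyte, erythroid, pharyngeal, splanchnic, cranial mesoderm and allantois cells edgeR called 0 of the 10, where it called 1.22, 0, 0.0103, 0.0263, 0.0784 and 0.0284% of genes. At an unadjusted p under 0.05 there were 1, 1, 5, 4, 4 and 2 of the 10, and DESeq2 size factors in edgeR also called 0. In pharyngeal cells 1182 of all 9676 genes tested had an unadjusted p under 0.05. For the other classes that number is not given, so their counts are not read as a result. In cranial mesoderm cells those factors turned the split over all genes from 4 higher and 4 lower to 16 higher and 7 lower. In cardiomyocyte cells, with 9 samples a genotype, Dlk1 (0.05, SE 0.093) and Meg3 (0.07, SE 0.13) had small fitted differences. These pool the stages. At E8.0 Meg3 was at 505, 651 and 654 CPM in the controls of this class and at 427, 464 and 560 CPM in the mutants. At E9.5 it was at 395 to 853 CPM in the controls and at 496 to 1617 CPM in the mutants. In cranial mesoderm cells, with 7 controls and 6 mutants, Meg3 was at 0.72 (SE 0.16, edgeR adjusted p = 0.0682). The erythroid fit also pooled the stages, and its H19 values by stage are given above. The allantois fit had 5 controls and 2 mutants, and both mutants were of E8.0. With stage as a term it compared the genotypes at E8.0 alone, where sex and genotype cannot be told apart. Neural cells reached 20 cells in 2 controls and 1 mutant, and endoderm or epithelium cells in none, so neither was tested.

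Other imprinted genes and genes of the IGF pathway were read from lists. Of 41 other imprinted genes tested across the stages, 15 were higher in mutants and 1, Mcts2 (-0.35), was lower, with a median of 0.14, where the test called 10.2% of all genes. The largest were Dio3 (1.07), Dcn (0.95), Sfmbt2 (0.83), Plagl1 (0.67), Rtl1 (0.58) and Asb4 (0.58). Dio3, a deiodinase, and Rtl1, derived from a retrotransposon, share the chromosome 12 cluster with Dlk1 and Meg3, as do the noncoding RNAs Rian (0.39) and Mirg (0.41), named after their values were seen, which were also higher. Of 23 IGF pathway genes 6 were higher and none lower, with a median of 0.062: the binding proteins Igfbp2 (0.81) and Igfbp5 (0.65), the adaptors Grb14 (0.69) and Shc1 (0.27), and the receptors Insr (0.42) and Igf1r (0.32). Of 6 genes that maintain imprints, Zfp57 (0.34) was higher and Trim28 (-0.28) and Ctcf (-0.22) were lower.

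At E9.5, where 10.3% of all genes were called, 11 of 40 other imprinted genes were higher and 1 lower, with Ascl2 (2.12), a trophoblast transcription factor, Dcn (1.40), Sfmbt2 (1.28), Plagl1 (0.89), Zim1 (0.83) and Asb4 (0.65) the largest. Of 21 IGF pathway genes 5 were higher, among them Igfbp2 (1.34), Igfbp5 (0.69), Igfbp3 (0.65) and Insr (0.56), and the kinase pathway genes Pik3r1 (-0.51) and Akt1 (-0.49) were lower. From E8.0 to E9.5, where 22.5% of all genes were called, 9 of 40 other imprinted genes rose and 6 fell, among them Dcn (1.15) and Plagl1 (0.95), and Slc22a18 (-1.47), Magel2 (-1.29), Snrpn (-1.04) and Smoc1 (-0.81). Of the IGF pathway genes 3 rose and 5 fell, with Igfbp5 (1.22), Igf1 (0.93) and Igfbp4 (0.43) up and Irs4 (-1.10), Grb7 (-0.74) and Igf2bp1 (-0.36) among those down.

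Over the 20 barcode samples of E8.0 to E9.5 with at least 20 cells, the genes most like each member were found by Pearson's r of log2(CPM + 1) among 6072 genes, as a description, since the samples share run, depth and cell makeup. Those of H19 were Soat1 (0.90) and Ercc6l2 (0.90), those of Igf2r were Soat1 (0.90) and H19 (0.89), and those of Dlk1 were Zbed3 (0.92) and Meg3 (0.91). Meg3 was most like Usp29 (0.96) and Zfp512 (0.94), Peg3 like Ncam1 (0.96) and Zfp512 (0.94), and Peg10 like Kat7 (0.94) and Numa1 (0.94). Phlda2 was most like Ifitm1 (0.98) and Spin2c (0.95), Grb10 like Msi2 (0.97) and Igf1r (0.96), Mest like Ift22 (0.91) and 2610318N02Rik (0.90), and Igf2 like Rad21 (0.93) and Zmym2 (0.92). Igf2r with H19 and Dlk1 with Meg3 were the cases where a member was among the 2 nearest genes.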

How the data were processed

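Single-cell RNA-seq counts of sorted, MULTI-seq barcoded mouse cells were used as deposited: whole UMI counts per gene and cell, with a table of run, barcode, stage and condition per cell. Reads were processed with kallisto and bustools 0.46.1, and Cell Ranger is also named, on GRCm38, per the submitters' processing notes. Strand use, the handling of ambiguous reads, and doublet and cell filters are not given in the sources used here, and no doublets were called or removed here.

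Counts were summed per barcode sample and tested with edgeR 4.0.16 (TMM scaling, filterByExpr, quasi-likelihood F test, R 4.3.3), with Benjamini-Hochberg adjustment over all genes tested. The genotype fit had stage and run as terms, the stage fit genotype. DESeq2 1.42.0 was an alternative. The fits were also run on simulated counts with known changes. These had no differences in run or cell makeup between samples, and the outcome is not given here. The simulation therefore does not show how the fits behave on samples like these. CPM are UMIs per 1000000 UMIs of the sample, and depth ranged from 134457 to 61307782 UMIs. Classes needed 20 cells in a sample, and thinning used 5000 UMIs per cell. The alternatives included equal cells (28 per sample), 4 markers, left-out samples and the Y-linked share. All 10 genes are named, with the 6 largest called genes of each list and the 2 most like genes (mean of at least 20 CPM). The members and lists were chosen with earlier results of these data known. Of the 51923 symbols, 51846 were found in GENCODE M21. RefSeq promoters were those of GRCm38.p6.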

Additional observations from a re-analysis of the deposited data

Results flagged for a closer look

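Values that stood apart from the rest of their group were sought in 20 groups of 4 to 10 samples with Dixon's criterion at 95%, which chance meets in about 1 in 20 groups. Igf2 was at 4.31 CPM in Bar5, an E9.5 mutant of 57 cells, while the other 5 mutants of that stage had 14.0 to 16.7 CPM. The Bar5 value rested on 4 UMIs. Igf2r was at 7.44 CPM in Bar6, an E9.5 control of 6 cells, while the other 5 controls had 79.6 to 96.7 CPM. The Bar6 value was 1 UMI (exact 95% Poisson interval 0.188 to 41.4 CPM, for counting error only). Among the listed genes, the genotype difference of Ascl2 was larger at E9.5 than at E8.0 by 2.86 on the log2 scale (SE 0.42, edgeR adjusted p = 0.00336).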

How the results depend on the processing

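No paired analysis was possible because the labels give no replicate numbers shared between genotypes. Counts here are of the 10 genes called, each with the percentage of all genes that the same fit called. Across stages (6, 10.2%), equal cells gave 2 (1.69%) and the Y-linked share as a covariate 6 (2.26%). The fit without E9.5 (0.00536%) and runs 1 (0.0114%), 2 (0.208%) and 3 (0.482%) alone each gave 0. At E9.5 (4, 10.3%), DESeq2 (15.7%), its size factors (11.8%), and leaving out erythroid and endothelial cells (15.7%) each gave 7. The Y-linked share as a covariate gave 6 there (6.53%). Run 3 gave 0 (0.522%), and run 2 gave 2 (2.05%) from 1 mutant of 57 cells and controls of 6 and 608 cells, which is not read as a genotype difference. For the interaction (0, 0.464%), DESeq2 gave 1 (2.22%), and no filter (1.92%) and leaving out those cells (1.03%) gave 2 each. From E8.0 to E9.5 (2, 22.5%), DESeq2 (27.3%) and leaving out those cells (23.4%) gave 4 each, run 1 gave 6 (29.7%), and controls alone gave 1 (3.65%) and mutants alone 3 (13.6%). A run term (21.5%) and leaving out allantois cells (22.1%) also gave 3 each. Within classes, endothelial cells gave 1 (5.26%), paraxial cells 7 (5.63%) and allantois cells 4 (4.62%). From E8.0 to E8.5 (1, 19%), DESeq2 size factors gave 2 (19.8%), DESeq2 5 (24.6%), leaving out those cells 3 (21%) and a run term 0 (0.725%). From E8.5 to E9.5 (0, 0.0332%), DESeq2 gave 1 (9.4%). For genotype with 4 markers, endothelial cells gave 1 (0.12%), paraxial cells 2 (12.7%) and proepicardium cells 0 (0.359%), and size factors gave 4 in paraxial cells (7.82%). The 4-marker rule left too few samples in the pharyngeal, splanchnic, allantois and cranial classes.

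Leaving out 1 sample gave 5 to 7 calls across stages (6.06 to 12.7% of all genes), 0 at E8.0 (0.00583 to 0.0597%), 2 to 7 at E9.5 (3.35 to 13.1%) and 0 for the interaction (0.156 to 0.74%). It gave 2 to 3 from E8.0 to E9.5 (16.5 to 24.9%), 0 to 3 from E8.0 to E8.5 (2.71 to 23.4%) and 0 to 1 from E8.5 to E9.5 (0 to 12.7%). Within classes it gave 0 to 2 in proepicardium (0.0476 to 3.92%) and cranial cells (0.0294 to 1.12%), 0 to 5 in paraxial cells (2.15 to 11.1%) and 0 in cardiomyocyte (0.342 to 2.66%), erythroid (0 to 0.0509%), pharyngeal (0.0104 to 0.694%) and splanchnic cells (0.00876 to 0.11%). Of the 10 endothelial samples 6 could be left out (0 to 2 calls, 0.0102 to 0.221%) and of the 7 allantois samples 3 (0 calls, 0.0312 to 0.0384%), since the other omissions left no stage with 2 samples of each genotype. No E8.0 sample of either class was left out. The 3 allantois samples were controls of E8.5 and E9.5, where that class had no mutant sample. With stage as a term, these 3 omissions cannot show how far the allantois genotype differences rest on single samples. With 1 sample left out, Phlda2 ranged from -0.34 to 0.044 across stages, from -0.15 to 0.76 at E8.0 and from -0.57 to 0.20 at E9.5. Mest ranged from -0.055 to 0.084 across stages. At E8.0 Peg10 ranged from 0.035 to 0.48 and Igf2 from 0.17 to 0.52.

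Among the values followed through the settings, signs turned as follows, and the cause was not tested. Across stages, Igf2 was at -0.088 in run 2. Phlda2 was at 0.51 with the Y-linked share, 1.58 in run 3 and 0.13 without samples under 60 cells. Mest was at -0.012 with no filter, -0.069 without erythroid and endothelial cells and -0.49 in run 2. At E8.0, the Y-linked share put Igf2r at -0.034 and Grb10 at -0.097. Equal cells put Peg3 at -0.24, Peg10 at -0.82 and Phlda2 at -0.28. Leaving out erythroid and endothelial cells put Dlk1 at -0.0065 and Phlda2 at -0.088. At E9.5, Igf2 was at -0.84 in run 2 and Mest at 0.12 in run 3. Phlda2 was at 0.16 with equal cells, 0.60 with the Y-linked share, 1.56 in run 3 and 0.18 without samples under 60 cells. From E8.0 to E9.5, H19 was at 0.10 with equal cells, 0.076 in mutants and 0.0097 without allantois cells. Within classes H19 was at 0.048 in cardiomyocyte, 0.10 in endothelial, 1.77 in erythroid, 0.50 in paraxial, 0.36 in allantois and 0.048 in cranial cells. Dlk1 was at -0.35 in endothelial cells. Other genes turned too in this comparison. Igf2 (-0.087) and Peg10 (-0.48) had no call over all cells and were called higher in paraxial cells, as given above. Mest (0.10) had no call over all cells and was called lower in splanchnic or posterior cells. Of the other values of single genes that were followed, 270 kept direction and side of the threshold, 22 passed it and 48 no longer did. Samples of 6 to 57 cells and 1 mutant at E8.5 limit the precision.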
